A study of Mus musculus with 45 samples.

Results

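The hippocampus of Shank3-HM mice was compared with that of WT mice, using the samples that the labels assign to this tissue and these genotypes (5 Shank3-HM and 5 WT, 10 of the 45 samples of the series). All mice were male C57BL/6J animals aged 13 weeks, and pups of the 3 genotypes were reared together. Shank3-HM mice carry the Shank3 deletion of exons 14 to 16 on both chromosomes, and the labels call them knock-out. Shank3-HT mice (5 hippocampus samples) carry it on one chromosome and shared the estimate of the spread, and the study also sampled prefrontal cortex (called cortex here) and striatum to see how region and gene dosage affect the transcriptome of adult mice. The labels name no Cre driver, treatment or transgene in any group. They number the samples but do not tie the numbers to animals, so that p values measure the spread between samples.

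SHANK3 is a large scaffolding protein of the postsynaptic density of excitatory synapses, where it links the complexes of glutamate receptors to Homer proteins and to the actin cytoskeleton. Loss of SHANK3 causes the neurological features of Phelan-McDermid syndrome, and mutations are found in autism spectrum disorder (ASD). The hippocampus is built of granule cells of the dentate gyrus and pyramidal cells of the CA fields, with interneurons and glia, and serves learning, memory and responses to stress.

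The exons that the mutant lacks are shown first, because they define the genotype compared. They encode the PDZ domain, which binds the ends of partner proteins of the receptor complexes. The sequences are from the 22-exon Shank3 transcript in GENCODE M21 (GRCm38, plus strand), with the exon in capitals and 12 bases of the neighbouring exons of the transcript in lower case, and the exon numbers are those of this transcript.
Shank3 exon 14, chr15:89531626-89531708: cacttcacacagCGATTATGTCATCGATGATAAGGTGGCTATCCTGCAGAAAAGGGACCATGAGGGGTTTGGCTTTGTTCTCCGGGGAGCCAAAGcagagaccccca
Shank3 exon 15, chr15:89532095-89532219: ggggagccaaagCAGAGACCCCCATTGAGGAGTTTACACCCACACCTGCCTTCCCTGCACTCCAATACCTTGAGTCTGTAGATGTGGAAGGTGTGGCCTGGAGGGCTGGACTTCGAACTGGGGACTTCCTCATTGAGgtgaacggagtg
Shank3 exon 16, chr15:89532329-89532461: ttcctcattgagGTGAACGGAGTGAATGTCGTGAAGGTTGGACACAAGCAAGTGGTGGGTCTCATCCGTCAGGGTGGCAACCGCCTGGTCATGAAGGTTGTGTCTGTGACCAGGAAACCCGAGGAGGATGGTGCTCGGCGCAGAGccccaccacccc
Together these exons hold 341 of the 7365 bases of the transcript (4.63%), a length that leaves a remainder of 2 bases when divided into codons. The values analysed are per gene, so that reads from these exons cannot be told apart from reads elsewhere in Shank3.

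The deposited values are normalized counts with decimals, and the sequencing depth behind them is unknown. Their sums per sample were 26348586 to 26840581 in Shank3-HM mice and 26118607 to 27380382 in WT mice. Markers of the tissue were present in all 10 samples, with medians in WT hippocampus and WT cortex of 3425 and 344.8 for Prox1 and 1480 and 1.14 for Dsp (dentate granule cells), and of 3864 and 200.9 for Fibcd1 (CA1 pyramidal cells). WT replicate 1 stood apart from the others, with the lowest value on the first principal component (-39.5, against -17.3 to 31.6 in the other 14 samples) and a sample weight of 0.214, the lowest of the 15. Choroid plexus transcripts varied widely within both groups: Ttr was at 5006 to 55090 in Shank3-HM and at 2097 to 113000 in WT mice. List medians are given with and without WT replicate 1 where leaving it out changed their sign or moved them by over 1.5 times.

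Shank3 transcripts in the hippocampus fell in the Shank3-HM mice. The 5 Shank3-HM samples held 3755, 4020, 3678, 3866 and 3684 normalized counts of Shank3 (replicates 1 to 5), and the 5 WT samples 7799, 7748, 8468, 7566 and 8139. The groups were far apart, and the 5 Shank3-HT samples, at 5611 to 6108, lay between them without touching either. The log2 fold change of Shank3 was -1.06 (95% confidence interval -1.15 to -0.97), with an adjusted p of 1.19e-10 in limma with Benjamini-Hochberg adjustment. A two-sided exact permutation test gave p = 0.00794, the smallest that 5 against 5 samples allow. Leaving out any single Shank3-HM or WT sample kept the log2 fold change of Shank3 between -1.08 and -1.04.

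**Figure D1:**
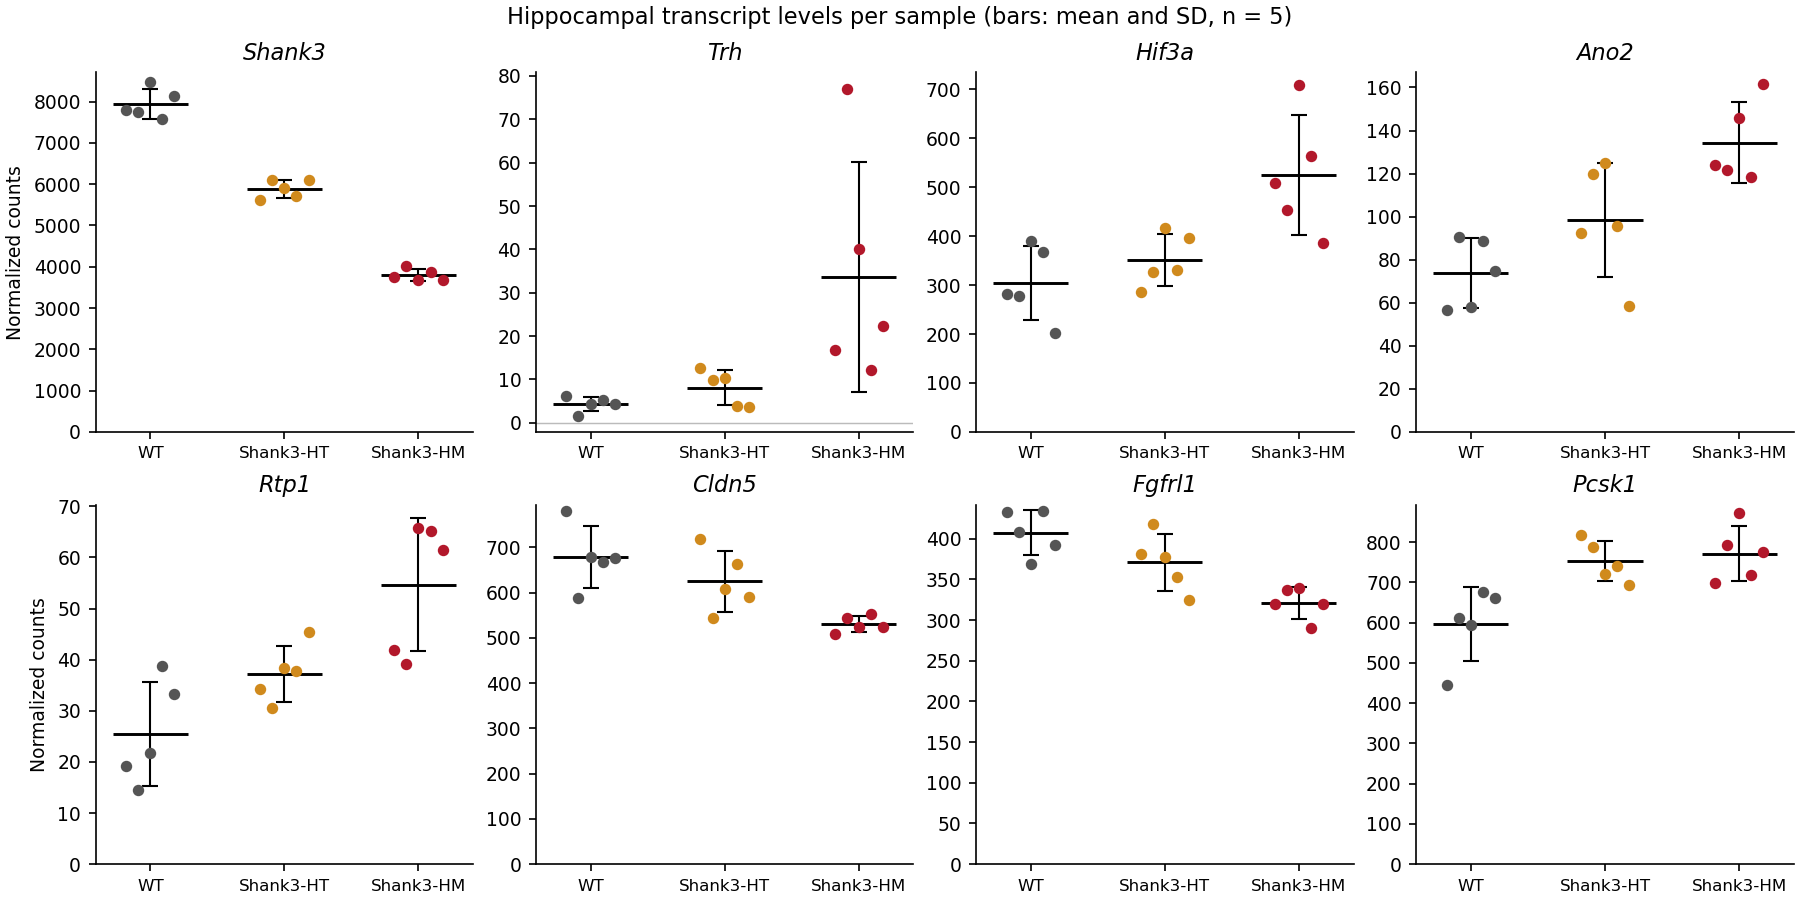
Normalized counts (y axes, from 0) of Shank3, the 6 other genes that the study lists for this comparison, and Pcsk1 in each hippocampus sample of WT, Shank3-HT and Shank3-HM mice. Points are samples and bars are the mean and SD over 5 samples. Shank3 separates the 3 genotypes, and Trh spreads from 12.2 to 77.1 within Shank3-HM mice.

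Shank3 was the only DEG. Of 16571 genes tested, limma with Benjamini-Hochberg adjustment called 1 at an adjusted p under 0.05 (0.00603% of the genes), and the next smallest adjusted p, that of Trh, was 0.494. At an unadjusted p under 0.05 stood 783 genes (4.73%), of which 474 were higher and 309 lower in Shank3-HM mice. For 122 genes (0.736%) all 5 Shank3-HM samples lay above (78 genes, 0.471%) or below (44 genes, 0.266%) all 5 WT samples. Complete separation of 5 against 5 samples in either direction has a probability of 0.00794 by chance (exact permutation test), so that this share was not above chance. Nor was the share at an unadjusted p under 0.05 in limma above what chance gives. Differences were small for most genes, with 88.9% of the log2 fold changes between -0.25 and 0.25 and a median standard error of 0.097. The values that follow for genes other than Shank3 therefore describe these samples and are not calls.

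**Figure D2:**
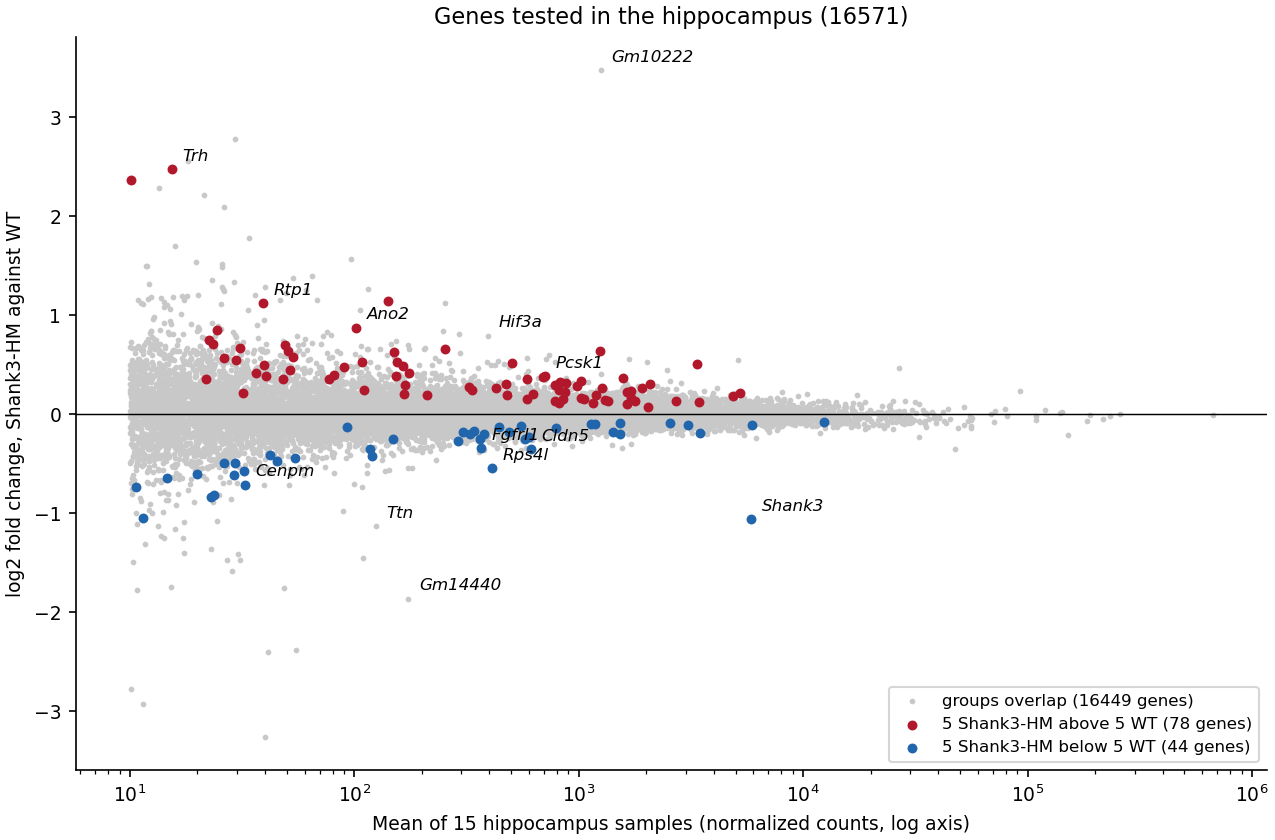
Log2 fold change of Shank3-HM against WT hippocampus (y axis) against the mean of the 15 hippocampus samples (x axis, log scale) for the 16571 genes tested. Red points are genes with every Shank3-HM sample higher than every WT sample, and blue points are the reverse. Shank3 lies apart from genes of its own level at -1.06, whereas Trh lies among genes with low counts.

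Trh encodes the precursor of thyrotropin-releasing hormone, a tripeptide known for its role in the hypothalamus that is also made by neurons elsewhere. The precursor carries several copies of the hormone's sequence, each set between pairs of basic residues where prohormone convertases cut. These copies are shown because they are what the Trh transcript encodes many times over. They were found as in-frame codons for glutamine, histidine, proline and glycine (capitals) in the coding sequence of the 3-exon Trh transcript of GENCODE M21 (GRCm38, minus strand, all in exon 3), with 12 bases on either side.
Trh copy 1, chr6:92243094-92243105: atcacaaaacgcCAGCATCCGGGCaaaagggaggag
Trh copy 2, chr6:92242998-92243009: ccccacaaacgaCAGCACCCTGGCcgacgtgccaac
Trh copy 3, chr6:92242863-92242874: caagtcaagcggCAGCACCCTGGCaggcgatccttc
Trh copy 4, chr6:92242809-92242820: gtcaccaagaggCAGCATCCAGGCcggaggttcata
Trh copy 5, chr6:92242716-92242727: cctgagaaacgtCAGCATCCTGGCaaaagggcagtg
At least 1 such match was present in 72 of 21901 mouse coding sequences, the longest of each gene (0.329%), and Trh alone held 5.

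Trh was low in every sample but lay higher in all 5 Shank3-HM mice. It was at 16.8, 77.1, 40.1, 12.2 and 22.3 normalized counts in Shank3-HM replicates 1 to 5 and at 6.15, 1.66, 4.36, 5.14 and 4.29 in WT replicates 1 to 5. The groups did not overlap, and Shank3-HM replicate 2 was the highest. Shank3-HT mice held 3.69 to 12.7, reaching above the lowest Shank3-HM value. Trh reached the required average of 10 across the 15 hippocampus samples through the Shank3-HM group alone, since its mean was 4.32 in WT and 8.06 in Shank3-HT mice, so that its place among the genes tested depends on the difference itself. The log2 fold change of Trh, on the log2(value + 1) scale that understates changes of low genes, was 2.47 ± 0.47 (standard error), and ranged from 2.10 to 2.75 when single samples were left out. In WT mice the mean of Trh was 11.3 in the cortex and 87.8 in the striatum, both above the 4.32 of the hippocampus.

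No gene of the list for TRH processing, its receptor and thyroid hormone action, Trh included, was called. Above 0 were 9 of the 22 members tested, with a median log2 fold change of -0.03 (-0.01 without WT replicate 1), beside a median of 0.00 over all genes tested. Pcsk1, a prohormone convertase that cuts the TRH precursor, was at 697.9 to 872.2 in Shank3-HM and 444.0 to 675.5 in WT mice, with no overlap and a log2 fold change of 0.38. Trhr, the TRH receptor, averaged 216.1 ± 32.1 in Shank3-HM mice (SD, n = 5) and 170.9 ± 41.9 in the WT group (SD, n = 5), and the groups overlapped. Later values with ± are likewise means and SD of 5 samples unless a standard error is named. Among thyroid hormone receptors, Thrb had a log2 fold change of 0.22 and Thra of -0.10.

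Of 24 neuropeptide genes tested, 14 lay above 0 with a median log2 fold change of 0.03 (19 and 0.08 without WT replicate 1). Cort, which encodes cortistatin, was at 127.7 ± 14.9 in Shank3-HM and 100.8 ± 27.8 in WT mice, and Adcyap1, which encodes PACAP, at 131.1 ± 21.4 and 98.0 ± 28.5. Trh was the only neuropeptide gene without overlap between the groups, beside 0.471% of all genes higher without overlap. This count and that above 0 include Trh, which the study chose on these samples and which passed the filter only through the Shank3-HM group. Penk and Tac1 had log2 fold changes of -0.18 and -0.12.

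Hif3a encodes a subunit of the hypoxia-inducible factors and is also a target of glucocorticoids. Its values in Shank3-HM replicates 1 to 5 were 509.3, 452.8, 709.3, 562.8 and 386.7, and in WT replicates 1 to 5 282.3, 277.5, 390.2, 368.1 and 202.0. The groups overlapped in a single pair, Shank3-HM replicate 5 and WT replicate 3, and the other Shank3-HM samples lay above all WT samples. The log2 fold change of Hif3a was 0.79 ± 0.18 (standard error), with an adjusted p of 0.718 in limma with Benjamini-Hochberg adjustment.

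Ano2 encodes a calcium-activated chloride channel. It was at 123.9, 121.6, 145.8, 118.3 and 161.8 in Shank3-HM replicates 1 to 5, and at 56.5, 90.5, 58.2, 88.7 and 74.8 in WT replicates 1 to 5. All Shank3-HM samples were above all WT samples, with Shank3-HT mice spread over both groups (58.5 to 124.9). Of the 8 anoctamins tested, Ano2 was the only one without overlap (0.471% of all genes were higher without overlap). The study chose Ano2 on these samples, so that its place in this count was given beforehand. The other anoctamins had log2 fold changes of at most 0.37 (Ano5), and the median of the family was 0.01 (-0.03 without WT replicate 1).

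Rtp1 encodes a chaperone that carries odorant receptors to the cell surface. Its values were 41.9, 39.2, 65.8, 65.1 and 61.4 in Shank3-HM replicates 1 to 5 and 19.2, 14.4, 21.7, 38.8 and 33.2 in WT replicates 1 to 5. The groups were set apart by less than 1 normalized count, between Shank3-HM replicate 2 and WT replicate 4, and replicates 1 and 2 formed the lower end of the Shank3-HM group. The related genes of receptor transport (8 tested, Rtp1 included) had a median log2 fold change of 0.01. None but Rtp1, which the study chose on these samples, was free of overlap (0.471% of all genes were higher without overlap).

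Cldn5 encodes the claudin of tight junctions between endothelial cells of the blood-brain barrier. It was at 508.3, 542.7, 522.9, 551.5 and 524.9 in Shank3-HM replicates 1 to 5, and at 780.8, 588.3, 678.9, 667.4 and 675.8 in WT replicates 1 to 5. All Shank3-HM samples were below all WT samples, and their SD of 17.1 was smaller than the 68.4 of WT mice. The log2 fold change of Cldn5 was -0.35 ± 0.08 (standard error), or -0.30 without WT replicate 1.

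The other endothelial markers did not separate the groups. Of 38 endothelial genes tested, 26 lay below 0 with a median log2 fold change of -0.05 (27 and -0.09 without WT replicate 1). Cldn5, which the study chose on these samples, was the only one without overlap (0.266% of all genes were lower without overlap). The summed level of the list was 27260 to 33221 in Shank3-HM and 28921 to 32844 in WT mice, and Cldn5, Pecam1, Cdh5 and Flt1 were above 0 in every sample. In tissue homogenates, fewer cells of a type and less RNA per cell cannot be told apart.

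Fgfrl1 encodes a receptor of fibroblast growth factors (FGFs) that lacks a kinase domain. It was at 319.3, 336.6, 339.3, 290.8 and 319.9 in Shank3-HM replicates 1 to 5, and at 432.4, 408.8, 369.3, 434.4 and 391.9 in WT replicates 1 to 5. The groups did not overlap, and the log2 fold change was -0.34 ± 0.08 (standard error). In the list of FGF signalling (32 genes tested, median log2 fold change 0.03, and 0.00 without WT replicate 1), Fgfr2 and Spry2 lay below 0 at -0.18 and -0.12, and Flrt1 and Spred1 above 0 at 0.33 and 0.16. The groups overlapped for these 4 genes.

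Among the remaining genes higher in all 5 Shank3-HM samples, the smallest limma p values were those of Kitl, Atp8b2, Mid2, Gng4, Zfand4, Meis2 and Dock3. Kitl, which encodes the ligand of the Kit receptor, was at 816.8 to 937.2 in Shank3-HM and 605.2 to 784.1 in WT mice (log2 fold change 0.33). Gng4, a G protein gamma subunit, was at 657.0 to 915.2 and 518.7 to 633.4 (0.38), and Meis2, a homeobox transcription factor, at 1226 to 1549 and 1075 to 1197 (0.27). Dock3, an activator of Rac, was the most abundant of these genes and had the smallest difference, at 4914 to 5339 and 4331 to 4831 (0.18).

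Shank3-HT values of Kitl and Meis2 reached into the Shank3-HM range. For Kitl they were 755.9 to 954.3 and for Meis2 1167 to 1449. The log2 difference of Shank3-HM from Shank3-HT mice was 0.00 for Kitl and 0.04 for Meis2. Both comparisons use the same Shank3-HM samples.

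Among the remaining genes lower in all 5 Shank3-HM samples were Rps4l, Tgfb2, Cenpm, Clcc1, Evi2a, Pbdc1 and Slc26a1. Rps4l was at 332.4 to 364.5 in Shank3-HM and 410.6 to 709.0 in WT mice. It is annotated as a transcribed processed pseudogene and resembles the ribosomal protein gene Rps4x, so that shared reads make its value uncertain. Its log2 fold change was -0.54, or -0.42 without WT replicate 1, which was its highest sample.

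Tgfb2, a growth factor of the TGF-beta family, was at 1365 to 1484 in Shank3-HM and 1560 to 1719 in WT mice (log2 fold change -0.20). Clcc1, a chloride channel of the endoplasmic reticulum, was at 467.8 to 570.2 and 591.5 to 696.8 (-0.25). Slc26a1, a sulfate transporter, was at 12.8 to 20.2 and 22.0 to 42.0 (-0.81). These differences exceeded the SD of both groups, which the choice of genes without overlap makes likely, and none was called over all genes.

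Of 36 tested genes of the Shank3-linked postsynaptic scaffold list, 18 lay above and 18 below 0, with a median log2 fold change of 0.00 (-0.01 without WT replicate 1). Shank1 and Shank2, the paralogs of Shank3, had medians of 16060 and 6878 in Shank3-HM and 16230 and 6831 in WT mice. The scaffolds Dlg4 (21500 and 21830) and Homer1 (3012 and 2911) also overlapped. The member nearest to the threshold after Shank3 was Actn2, an actin crosslinker of spines, at 396.6 ± 25.5 and 444.0 ± 20.9.

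Among 20 tested genes of AMPA receptors and their auxiliary proteins, 2 had no overlap, both higher, beside 0.471% of all genes. Gria4, a subunit of the receptor, was at 1663 to 1906 in Shank3-HM and 1300 to 1602 in WT mice (log2 fold change 0.23), and Olfm2, a secreted partner, had a log2 fold change of 0.31. Cacng8, an auxiliary subunit that keeps AMPA receptors at the synapse, lay in the other direction at 1557 to 1889 and 1777 to 2126 (-0.17), with overlapping groups. At an unadjusted p under 0.05, 3 members were higher and 1 was lower, beside 2.86% and 1.86% of all genes. The abundant subunits Gria1 and Gria2 had medians of 26380 and 24230 in Shank3-HM and 27980 and 24030 in WT mice. The median of the list was 0.04, and 0.00 without WT replicate 1.

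Of the 6 NMDA receptor subunits tested, none had an unadjusted p under 0.05, and their log2 fold changes ranged from -0.13 to 0.13 (median 0.04, and -0.02 without WT replicate 1). In the list of kainate and metabotropic glutamate receptors (14 tested, median 0.01, and -0.05 without WT replicate 1), Grm8, a presynaptic metabotropic receptor, was at 172.8 to 218.2 in Shank3-HM and 79.2 to 161.2 in WT mice (0.48). Grik3 had a log2 fold change of 0.26, Grik4 of -0.15 and Grik5 of -0.12, with overlapping groups. The lists of inhibitory synapse (28 tested) and presynaptic release (44 tested) had medians of 0.03 and 0.02 (0.00 and 0.01 without WT replicate 1). Within them, Unc13c, a priming factor of vesicles, was at 788.2 ± 84.5 and 554.3 ± 158.0, and Glra2, a glycine receptor subunit, at 257.9 ± 19.6 and 201.1 ± 23.5. Of the GABA-A receptor subunits, Gabra3 had a log2 fold change of 0.19 and Gabra5 of -0.16.

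Markers of hippocampal cell types gave no call. The median log2 fold change was -0.01 for dentate granule cells (12 genes), 0.05 for CA1 (10), 0.03 for CA2 (6), -0.06 for CA3 (9) and -0.01 for interneurons (31). Without WT replicate 1 these were -0.06, 0.05, 0.02, -0.09 and 0.01. In the CA3 list 8 of 9 members lay below 0 (9 of 9 without that sample), among them Grik4 and Bok at -0.15 and -0.17. Gad1, Pvalb and Sst, which mark interneurons, had medians of 6993, 442.9 and 3637 in Shank3-HM and 6984, 455.0 and 3681 in WT mice.

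Of 20 tested markers of neocortical and claustral projection neurons, 14 lay above and 6 below 0, with a median log2 fold change of 0.11 (0.11 without WT replicate 1), and 5 were higher and 1 lower at an unadjusted p under 0.05, beside 2.86% and 1.86% of all genes. The lower member was Hs3st4, a heparan sulfate sulfotransferase, with a log2 fold change of -0.15. Tbr1, a transcription factor of glutamatergic neurons, was at 1213 to 1298 in Shank3-HM and 1010 to 1132 in WT mice. Tshz2, a zinc finger transcription factor, was at 1630 to 2047 and 800.8 to 1714. The list level of Shank3-HM replicate 4 (0.03 above the WT mean) lay below those of WT replicates 1 and 5 (0.06 and 0.09), and the other Shank3-HM samples lay above all WT samples. The summed level of the list was 22982 to 24695 in Shank3-HM and 21597 to 23309 in WT mice, and its defining markers Rorb, Cux2 and Fezf2 were above 0 in every sample. Their medians in WT hippocampus and WT cortex were 450.1 and 1472 (Rorb), 649.3 and 4705 (Cux2), and 913.6 and 841.1 (Fezf2). Fezf2 thus did not set the cortex apart from the hippocampus.

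Markers of striatal spiny projection neurons had a median log2 fold change of 0.06 over the 18 tested (0.01 without WT replicate 1). Drd1, Drd2 and Adora2a had medians of 97.1, 61.1 and 48.2 in Shank3-HM and 79.6, 60.7 and 45.6 in WT mice.

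The genes higher in all 5 Shank3-HM samples included many that are more abundant in the cortex. Levels were compared with the Shank3-HT hippocampus, which did not enter the choice of these genes. In WT cortex, 29 of the 78 genes (37.2%) were at least 1.5 times as high as in the Shank3-HT hippocampus, beside 1588 of the 16571 genes tested (9.58%). Of the 44 genes lower in all 5 Shank3-HM samples, 0 were. For WT striatum the shares were 21.8% of the 78 genes, 22.7% of the 44 genes and 11.9% of all genes. At least 1.5 times lower in the striatum were 26.9% of the 78 genes, 9.09% of the 44 genes and 16.7% of all genes, and in the cortex 5.13%, 13.6% and 12.3%. The part of tissue composition in these values was not tested.

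Most glucocorticoid-responsive genes lay above 0. Of 36 tested, 32 had log2 fold changes above 0, beside 51.5% of all genes, with a median of 0.16 both with and without WT replicate 1. At an unadjusted p under 0.05, 9 were higher and 0 lower, beside 2.86% and 1.86% of all genes, and limma called none over all genes. Tsc22d3, which encodes the glucocorticoid-induced leucine zipper, was at 2095 to 2462 in Shank3-HM and 1654 to 2082 in WT mice. Per1, a clock gene with glucocorticoid response elements, was at 2154 to 2891 and 2028 to 2156, and Sgk1, a kinase, at 2039 to 3969 and 1498 to 2530. Fkbp5, a chaperone of the receptor, overlapped widely at 1842 to 2434 and 1798 to 2407.

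The mean log2 level of the glucocorticoid list, set relative to all genes and to the WT mean, was 0.17, 0.19, 0.22, 0.11 and 0.11 in Shank3-HM replicates 1 to 5. It was 0.07, -0.06, -0.01, 0.13 and -0.13 in WT replicates 1 to 5. WT replicate 4 lay above Shank3-HM replicates 4 and 5, and the other WT samples lay below all Shank3-HM samples. The list includes Hif3a, which the study chose on these samples.

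Hypoxia-responsive genes (32 tested) had a smaller median of 0.04 (0.02 without WT replicate 1). Adm, which encodes adrenomedullin, was at 33.4 to 40.7 in Shank3-HM and 17.3 to 28.1 in WT mice, with no overlap and a log2 fold change of 0.67. Mxi1 was the other member without overlap, at 0.10 (2 of 32, both higher, beside 0.471% of all genes). Higd1a, a mitochondrial protein, lay below 0 at -0.15, with overlapping groups.

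Activity-regulated genes lay mainly above 0 (39 of 49, median log2 fold change 0.07, and 0.12 without WT replicate 1). Nr4a2, a nuclear receptor, was at 1641 ± 118 in Shank3-HM and 1362 ± 137 in WT mice, and Sik1, a kinase, at 390.1 ± 69.8 and 297.1 ± 47.9. Ptgs2, which encodes cyclooxygenase-2, differed the other way, at 583.2 ± 20.4 and 673.8 ± 112. The classical markers had medians of 332.0 and 193.4 for Fos, 4171 and 3362 for Arc, and 277.9 and 411.8 for Npas4 in Shank3-HM and WT mice. The level of the list overlapped between the groups, with WT replicate 1 the highest sample at 0.24 and WT replicate 4 the lowest at -0.13.

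**Figure D3:**
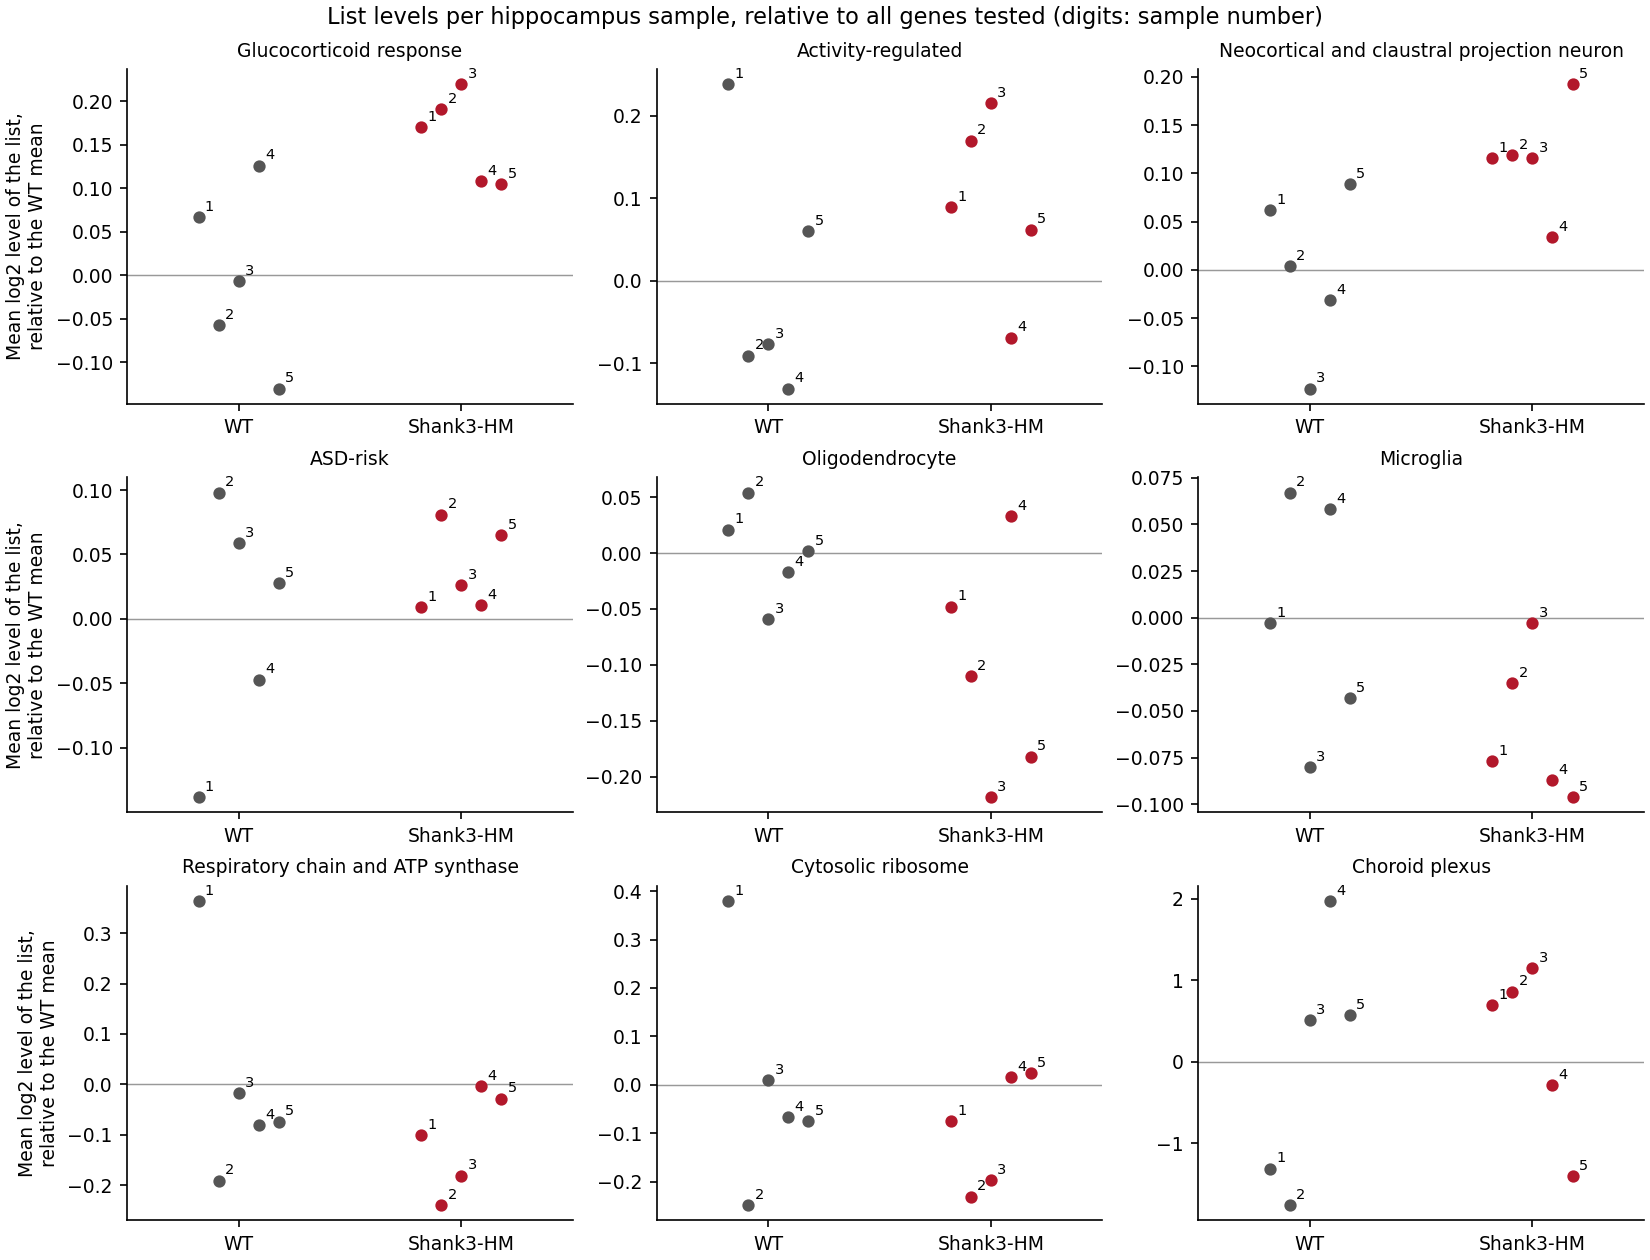
Mean log2 level of 9 gene lists in each WT and Shank3-HM hippocampus sample, relative to all genes tested and to the WT mean (y axes, log2 scale; digits are sample numbers). All WT samples but sample 4 lie below every Shank3-HM sample for glucocorticoid response, WT sample 1 lies apart for the respiratory chain (0.36) and the cytosolic ribosome (0.38), and choroid plexus spans -1.75 to 1.98 within WT mice.

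Oligodendrocyte genes lay below 0 in Shank3-HM mice. Of 37 tested, 32 had log2 fold changes below 0 (35 without WT replicate 1), with a median of -0.08 in both cases, and 0 were higher and 6 lower at an unadjusted p under 0.05, beside 2.86% and 1.86% of all genes. Aspa, an enzyme of N-acetylaspartate breakdown, was at 281.7 to 389.0 in Shank3-HM and 382.2 to 466.5 in WT mice. Olig2, a lineage transcription factor, was at 482.2 to 617.7 and 551.0 to 629.6, and Trf, which encodes transferrin, at 4781 to 6136 and 5756 to 7905. The groups overlapped for every member, and the summed level of the list was 193046 to 227797 in Shank3-HM and 207853 to 221735 in WT mice. Shank3-HM replicates 3 and 5 were the lowest samples of the list (-0.22 and -0.18), whereas replicate 4 was above the WT mean (0.03).

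Microglial genes (44 tested) had a median log2 fold change of -0.06, with 30 below 0. The fractalkine receptor gene Cx3cr1 was at 875.8 to 1023 in Shank3-HM and 957.0 to 1260 in WT mice, and Trem2, a lipid receptor, at 198.7 to 232.2 and 215.4 to 300.6. Tlr7 lay in the other direction at 140.0 ± 62.5 and 87.7 ± 15.8. Astrocyte genes (44 tested) were centred at 0.00 (-0.01 without WT replicate 1), with 23 above and 21 below 0 and none at an unadjusted p under 0.05.

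Ribosomal and mitochondrial lists depended on WT replicate 1. Genes of the respiratory chain and ATP synthase lay below 0 in 72 of 75 cases (median log2 fold change -0.09), but in 48 of 75 without that sample (-0.02). Cytosolic ribosome genes lay below 0 in 73 of 83 cases (-0.08), and in 35 of 83 without it (0.01). Mitochondrial ribosome genes lay below 0 in 67 of 83 cases (-0.05), and in 32 of 83 without it (0.02). Cox6c, a subunit of cytochrome c oxidase, was the only member of the 3 lists without overlap (beside 0.266% of all genes lower without overlap), with a log2 fold change of -0.19 (-0.10 without that sample).

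ASD-risk genes followed the same sample in the opposite direction. Above 0 were 105 of 138 genes (median log2 fold change 0.06), and 78 of 138 without WT replicate 1 (0.01), beside 51.5% and 50.1% of all genes, and the list level of that sample was the lowest of the 10 at -0.14. At an unadjusted p under 0.05, 7 were higher and 1, Shank3, was lower, beside 2.86% and 1.86% of all genes. Satb1, a chromatin organizer, and Kdm6b, a histone demethylase, had log2 fold changes of 0.20 and 0.17. Chd8, a chromatin remodeler, had a median of 2944 in Shank3-HM and 3115 in WT mice.

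**Figure D4:**
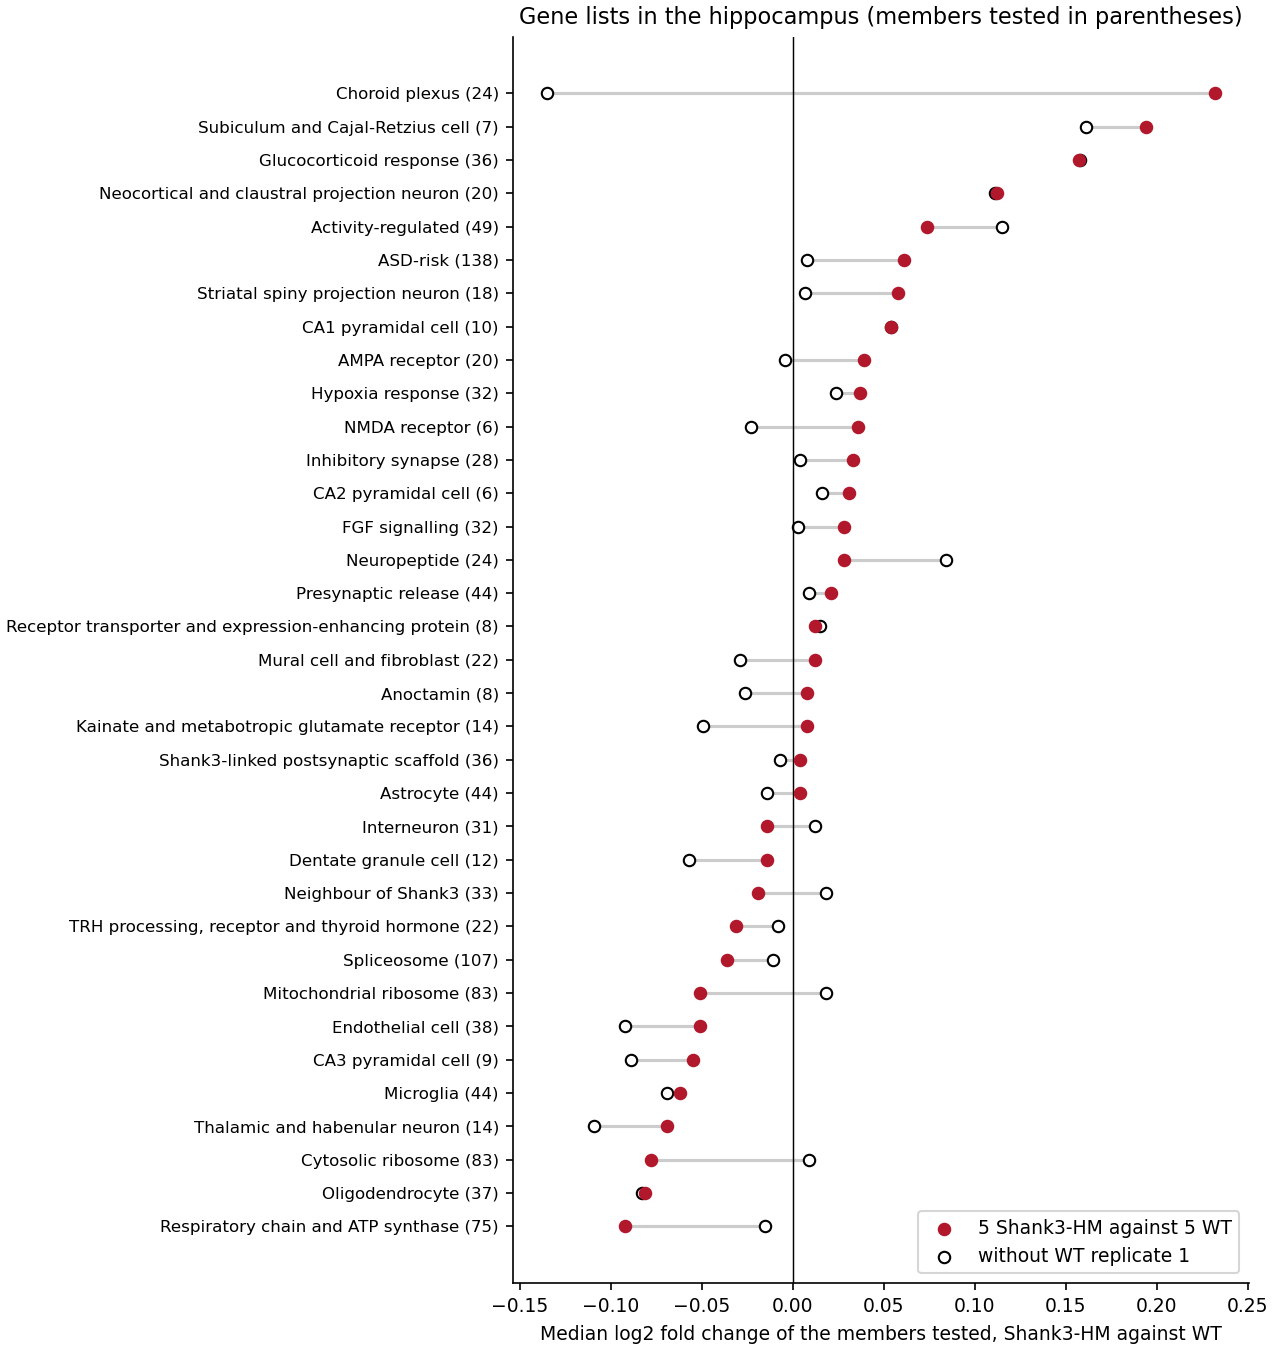
Median log2 fold change of Shank3-HM against WT hippocampus (x axis) for the 35 gene lists, with all samples (red) and without WT replicate 1 (open circles). Numbers in parentheses are the members tested. Glucocorticoid response (0.16), neocortical and claustral projection neuron (0.11) and oligodendrocyte (-0.08) keep their position without that sample, whereas respiratory chain, cytosolic ribosome and ASD-risk move towards 0 and choroid plexus turns from 0.23 to -0.14.

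The remaining lists gave no call either. Of 7 tested genes of subiculum and Cajal-Retzius cells, 6 lay above 0 (median log2 fold change 0.19), among them the transcription factor Ebf3 at 75.4 ± 18.5 and 49.6 ± 33.9. The medians were 0.01 for mural cells and fibroblasts (22 tested), -0.07 for thalamic and habenular neurons (14) and -0.04 for the spliceosome (107), and without WT replicate 1 they were -0.03, -0.11 and -0.01. Gbx2, a defining thalamic marker, was listed at 0 in some samples of both groups and reached 2.09 at most.

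Choroid plexus had a median log2 fold change of 0.23 with all samples (21 of 24 above 0) and of -0.14 without WT replicate 1 (19 of 24 below 0), and no member had an unadjusted p under 0.05. Its summed level was 16559 to 107938 in Shank3-HM and 13531 to 208582 in WT mice, with WT replicate 4 the highest and WT replicates 1 and 2 among the lowest samples. Ttr, Folr1 and Kl were above 0 in every sample. The log2 fold change of Ttr, the carrier of thyroid hormone secreted by this epithelium, was 0.47 ± 1.18 (standard error), and 0.08 without WT replicate 1.

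Only Shank3 was called between Shank3-HM and Shank3-HT hippocampus. Its log2 difference was -0.63 ± 0.04 (standard error), with an adjusted p of 6.31e-07 in limma with Benjamini-Hochberg adjustment (1 of 16571 genes, 0.00603%). At an unadjusted p under 0.05 stood 347 genes (2.09%), 1 of them Shank3. For the 6 other genes listed by the study, the differences of Shank3-HM and of Shank3-HT from WT mice, which share the WT samples, were 2.47 and 0.70 for Trh, 1.12 and 0.60 for Rtp1, 0.87 and 0.39 for Ano2, and 0.79 and 0.23 for Hif3a. They were -0.35 and -0.12 for Cldn5 and -0.34 and -0.14 for Fgfrl1.

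The response of Shank3-HM mice was compared between regions by the interaction of region and genotype, fitted over all 45 samples. Each genotype had 5 mice for the 3 regions, which is fewer than the 15 samples of a genotype, so that regions may share animals. The labels do not tie samples to mice, and the fit treated the samples as separate, so that these p values may be too small or too large. Between hippocampus and cortex, 0 of 16571 genes (0%) were called by limma with Benjamini-Hochberg adjustment, with 731 (4.41%) at an unadjusted p under 0.05. For Shank3 the log2 fold change was -0.98 in the cortex and -1.11 in the striatum, and it did not differ detectably from that of the hippocampus (interaction -0.08 ± 0.09 and 0.05 ± 0.09, standard error). Cldn5 lay lower in all 3 regions (-0.35 in the hippocampus, -0.28 in the cortex and -0.27 in the striatum), as did Fgfrl1 (-0.34, -0.25 and -0.19). Trh was at 2.47 in the hippocampus, 1.23 in the cortex and 0.10 in the striatum, given as values only because the Shank3-HM hippocampus samples brought this gene past the filter.

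Between hippocampus and striatum, 10 genes were called (0.0603%), 2 with a higher (0.0121%) and 8 with a lower (0.0483%) difference in the hippocampus, and 890 stood at an unadjusted p under 0.05 (5.37%). Necab1, a neuronal calcium-binding protein, had a log2 fold change of 0.53 in the hippocampus and -0.25 in the striatum (difference 0.78). Its hippocampal values were 1945 to 2580 in Shank3-HM and 1319 to 1969 in WT mice, overlapping in 1 pair of samples. Dcaf7 was the other gene with a positive difference (0.30). The remaining 8 genes had hippocampal log2 fold changes of -0.15 to 0.04 and lay higher in the striatum of Shank3-HM mice: Nptx2, a neuronal pentraxin, had -0.15 and 0.74, Rimbp2, an active zone protein, 0.04 and 0.52, and Csdc2, an RNA-binding protein, -0.03 and 0.46. The count was 2 to 11 when single samples were left out, and was 2 without WT replicate 1 or 3 of the hippocampus or WT replicate 1 of the striatum.

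**Figure D5:**
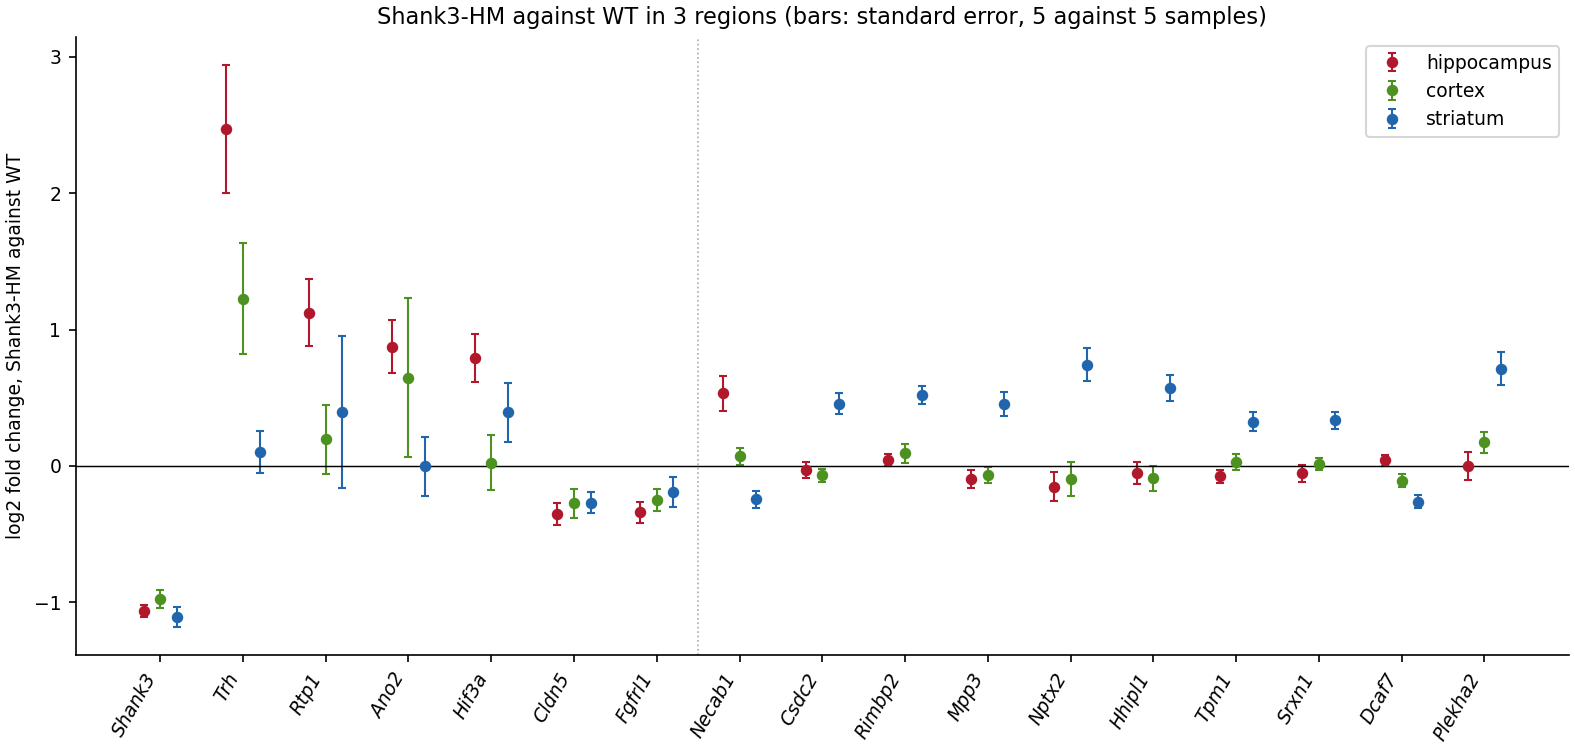
Log2 fold change of Shank3-HM against WT mice in hippocampus, cortex and striatum (y axis; bars are standard errors) for Shank3 and the 6 other genes of the study's list (left of the dotted line) and for the 10 genes whose response differed between hippocampus and striatum (right). Shank3 lies near -1 in each region, and for 8 of the 10 genes on the right the hippocampus lies near 0 and the striatum above it.

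No other gene near Shank3 on chromosome 15 was called. Within 1 Mb of its start, 35 other genes were tested, with log2 fold changes from -0.38 (Acr, the neighbour downstream) to 0.36 (Syt10), a median of -0.02 and no gene without overlap. The 33 tested genes of the list of Shank3 neighbours also had a median of -0.02 (0.02 without WT replicate 1). The smallest adjusted p among them was 0.92 in limma with Benjamini-Hochberg adjustment. Of the 122 genes without overlap, 7 lie on chromosome 15, Shank3 among them (1.09% of the genes tested there, beside 0.736% of all genes and 1.81% on the X chromosome).

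Among genes with a mean of at least 100, the most extreme log2 fold changes included genes listed at 0 in several samples. Gm10222 (3.48) was at 2844 and 4517 in 2 Shank3-HM samples and 5408 in 1 WT sample, at 70.6 in another Shank3-HM sample and listed at 0 in the others. Gm14440 (-1.86) was above 0 in 1 Shank3-HM and 2 WT samples. Both are members of families of similar genes or pseudogenes, whose reads could be divided among copies. Ttn, which encodes the muscle protein titin, was at 49.4 to 90.4 in Shank3-HM and 53.0 to 568.7 in WT mice (-1.13), with WT replicate 5 the highest.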

How the data were processed

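RNA of the hippocampus was sequenced by the study as stranded mRNA libraries. Per the methods and processing notes of the study, the authors quantified transcripts with Salmon 1.1.0 (GC bias correction, GRCm38), imported them with tximport and normalized them with DESeq2 (1.26.0 under R 3.6.2 in the submitters' notes). The deposited signal values are these normalized counts, in a single table of 45 samples. Whole reads could not be recovered (12.4% to 28.2% of low values lay within 0.05 of a whole multiple, where 10% would by chance), so that depth is unknown and tests of counts were not applied. Scaling shared by 3 regions could shift region-restricted genes.

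A pseudocount of 1 was added before taking log2. The 16571 of 18135 genes averaging 10 or more across the 15 hippocampus samples were tested with limma 3.58.1 (lmFit, eBayes with trend) in R 4.3.3, with the 3 genotypes in the model, with Benjamini-Hochberg adjustment over all genes and a threshold of 0.05. Adjusted p values in the text are from this test. Interactions used 1 fit of 9 groups. The fits were tested on simulated data. Names and coordinates are from GENCODE M21 (18120 genes matched). No column was left without a sample (0). The members and the 35 gene lists were chosen with earlier results of these data known, and lists are described without a test.

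Named are Shank3, the 6 other genes the study lists for this comparison, the 10 higher and 10 lower genes without overlap with the smallest p (predicted genes left out), the 3 highest and 3 lowest fold changes among genes averaging 100 or more, in each list the 3 members with the smallest p and the defining markers, and the 3 genes with the smallest p in the other comparisons. Trhr, Thra, Penk, Tac1, Fgfr2, Spry2, Higd1a, Mxi1, Ptgs2, Sik1, Kdm6b, Tlr7, Hs3st4, Syt10 and further genes called between regions were added after their values were seen. Not all genes that the rule names are reported here. Alternatives were no intensity trend, quantile normalization, no filter, a stricter filter (average 100 or more), pseudocount 0.1, only Shank3-HM and WT samples, the sample number as a block, sample weights and leaving out each sample. Leaving out samples in the other comparisons, and WT replicate 1 for the lists, was chosen after seeing the data. Python 3.11.15, pandas 2.3.3, scipy 1.17.1 and matplotlib 3.10.9 were used. The study's list of genes for this comparison set which 6 genes are named beside Shank3, and no value of the authors' own comparisons was used.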

Additional observations from a re-analysis of the deposited data

Results flagged for a closer look

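Of 130 groups of 5 samples examined (the named genes and the list levels, in each genotype), 6 held a sample far from the other 4, where chance gives about 1 in 20. All but the last concern pseudogenes or genes with similar copies. Gm9794 was listed at 0.0 in WT replicate 2, and Gm10131 at 0.0 in Shank3-HM replicate 1 and at 184.3 in WT replicate 5. Gm10222 stood at 5408 in WT replicate 4 and Gm14440 at 205.5 in Shank3-HM replicate 4, with the other 4 samples of these groups listed at 0. Csdc2 was highest in WT replicate 1, at 2806.

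The response of 10 genes differed between hippocampus and striatum by the interaction test of limma with Benjamini-Hochberg adjustment. The differences (hippocampus minus striatum, log2 scale) were 0.778 for Necab1, 0.302 for Dcaf7, -0.484 for Csdc2, -0.476 for Rimbp2, -0.552 for Mpp3, -0.895 for Nptx2, -0.626 for Hhipl1, -0.400 for Tpm1, -0.390 for Srxn1 and -0.714 for Plekha2.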

How the results depend on the processing

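Shank3 stayed called, with a log2 fold change of the same sign, under every alternative tried. The count of genes called between Shank3-HM and WT hippocampus was 1 in all alternatives except without a filter on low values, where it was 2 (Shank3 and Gm43302), and it was 1 throughout when single samples were left out. Genes at an unadjusted p under 0.05 then numbered 584 (without Shank3-HM replicate 2) to 1152 (without WT replicate 4). The count against Shank3-HT mice was 1 throughout. The count of differences between hippocampus and striatum was 6 without the intensity trend and 2 to 11 when single samples were left out, the lowest without WT replicate 1 or 3 of the hippocampus or WT replicate 1 of the striatum. It was 4 to 6 without Shank3-HM replicate 2 or 3 or WT replicate 2 of the hippocampus, or Shank3-HM replicate 1, 2 or 5 or WT replicate 2 or 3 of the striatum. Between hippocampus and cortex the count was 0 to 1, with 1 without cortex WT replicate 3. The cause was not tested.

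Sample numbers did not pair the samples: same-numbered Shank3-HM and WT samples correlated at -0.111 to 0.0982 in their deviations from the group means. With the sample number as a block, 1 gene was called between Shank3-HM and WT mice and 12 between hippocampus and striatum. The log2 fold change of Gm9794 ranged from -0.177 (without WT replicate 2) to 1.784 when single samples were left out. That of Csdc2, at -0.028, ranged from -0.060 to 0.019 (without WT replicate 1) and was 0.008 without Shank3-HM replicate 5 and 0.009 with sample weights. Without WT replicate 1 the list medians of choroid plexus, cytosolic and mitochondrial ribosome, AMPA, NMDA and kainate or metabotropic receptors, postsynaptic scaffold, anoctamins, astrocytes, interneurons, mural cells and neighbours of Shank3 changed sign. Depth is unknown, so that counting error is not covered, and low genes such as Trh and Rtp1 are the least certain.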
